A study of Mus musculus with 2 samples.

Results

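Histone acetylation machinery is described here as 46 genes in 4 roles: 16 deacetylases, 14 corepressor and complex subunits, 12 acetyltransferases and coactivators, and 4 bromodomain readers. The genes were listed by name and not by a cut on their values, though earlier results of these data were known. Of the 46 genes, 42 were found under their listed symbols and 4 (Kat6a, Kat6b, Kat7 and Kat8) under the older symbols Myst3, Myst4, Myst2 and Myst1, among 13138 genes in the deposited table. RNA was sequenced from primary mouse chondrocytes (strain C57Bl/6) that grew outside the animal in high-density micromass cultures. One library came from cells given a Cre-recombinase adenovirus and has the genotype label hdac3-knockout, and the other came from cells given a GFP control adenovirus and has the genotype label wild-type. No label names a floxed allele, the exons that Cre would remove, the age of the mice or the number of animals, and the source field of both samples names a K27ac ChIP although titles and protocols describe RNA. Each group had 1 library, so no difference between the libraries could be tested or checked against replicates.

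Acetyl groups on histone tails neutralise lysine charge and form docking sites for bromodomain proteins, and acetylated tails mark active promoters and enhancers. Acetyltransferases add the group, zinc-dependent deacetylases (HDACs) and NAD-dependent sirtuins remove it, and corepressor scaffolds such as NCoR, SIN3, CoREST and NuRD bring deacetylases to chromatin and, for NCoR, activate the bound Hdac3. In cartilage, mouse Hdac4 restrains chondrocyte hypertrophy by holding back MEF2 and Runx2, and mouse Hdac3 is needed for normal growth plate maturation.

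Every value below is the authors' deposited log2 normalized count of a gene in a library, and every difference is the library labelled Cre minus the library labelled GFP. Depth per library is unknown, since the table holds no counts. Of the 13138 genes, 12809 had a mean of at least 50 on the linear scale, and all 46 genes of the machinery were among them. The defining chondrocyte genes were present at high levels: 13 of 13 were found, from 10.99 (Sox5) to 20.35 (Col2a1) over both libraries. All 13 were lower in the library labelled Cre, with a median of -0.42, whereas 12 of 17 measured macrophage and osteoclast markers were higher, with a median of 0.26. Of 18 listed macrophage and osteoclast markers, 17 were found and Oscar was not. The deposited values hold no genes of low mean level, so absence of a marker from a library could not be tested. The 17 markers found had values from 6.04 to 14.82 over both libraries. Their summed level was 15.84 in Cre and 15.27 in GFP on the log2 scale. The sum was taken on the linear scale, so it is weighted to the most abundant marker, Lyz2, at 14.82 in Cre and 13.98 in GFP. Mrc1, C1qc, C1qa, C1qb and Cd68 were lower in Cre, with differences from -0.73 (Mrc1) to -0.05 (Cd68). The part of cell composition in the differences below was not tested, and in bulk RNA fewer cells of a type and less RNA per cell cannot be told apart.

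Upstream sequences are shown for the genes with the lowest and highest differences that had a single start site in the RefSeq promoter table (build GRCm38.p6), Hdac11 and Rbbp7 at the low end and Hdac4 and Hdac6 at the high end. Each line gives, in the gene's own direction, the longest stretch of the 250 bases before the RefSeq start site that lies outside annotated exons. Capitals mark the GC box (GGGCGG), the CCAAT box (the letters of its name) and the TATA box (TATAAA) on either strand, and overlaps between motifs were allowed. The Hdac11 stretch is chr6:91156565-91156664 on the plus strand, Rbbp7 is chrX:162760122-162760371 on the plus strand, Hdac4 is chr1:92180342-92180591 on the minus strand and Hdac6 is chrX:7947890-7948139 on the minus strand. In the GENCODE M21 annotation Hdac4 spans 91928779 to 92195699, so its stretch lies before the RefSeq start site but inside the GENCODE gene.
Hdac11: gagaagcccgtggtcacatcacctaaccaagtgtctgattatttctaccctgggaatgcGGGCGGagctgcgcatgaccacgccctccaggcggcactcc
Rbbp7: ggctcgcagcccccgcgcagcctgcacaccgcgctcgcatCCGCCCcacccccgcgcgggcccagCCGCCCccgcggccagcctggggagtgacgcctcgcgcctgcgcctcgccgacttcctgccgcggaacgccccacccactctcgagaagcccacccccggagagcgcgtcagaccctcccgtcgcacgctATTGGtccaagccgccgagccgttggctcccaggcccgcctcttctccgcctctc
Hdac4: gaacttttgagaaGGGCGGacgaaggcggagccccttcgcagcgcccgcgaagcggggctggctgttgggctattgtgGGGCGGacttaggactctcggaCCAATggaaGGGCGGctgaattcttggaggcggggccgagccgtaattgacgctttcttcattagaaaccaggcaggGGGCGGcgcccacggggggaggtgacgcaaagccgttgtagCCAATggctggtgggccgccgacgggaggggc
Hdac6: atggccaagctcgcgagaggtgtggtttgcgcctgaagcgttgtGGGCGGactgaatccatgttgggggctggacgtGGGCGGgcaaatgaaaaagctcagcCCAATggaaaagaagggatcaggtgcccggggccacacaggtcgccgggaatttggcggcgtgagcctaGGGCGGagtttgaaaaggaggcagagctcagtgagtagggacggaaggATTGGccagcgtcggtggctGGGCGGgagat

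The Hdac11 stretch of 100 bases held 1 GC box and 6 CpG dinucleotides. That stretch ends 150 bases before the RefSeq start site. The full 250 bases before the Hdac11 start site held 17 CpGs and also a CCAAT box. Rbbp7, with 250 bases shown, held 2 GC boxes, 1 CCAAT box and 34 CpGs, and both Hdac4 and Hdac6 held 4 GC boxes and 2 CCAAT boxes, with 23 and 17 CpGs. None of the 4 stretches held the TATA box letters. Over the full 250 bases, 26 of the 39 machinery genes in the promoter table (66.7%) held a GC box, against 59.9% of the 9157 compared genes in that table. A CCAAT box was in 38.5% of the machinery promoters and 36.7% of all, and a TATA box in 7.69% and 6.31%. The median number of CpGs was 18 in the machinery and 16 over all. These are counts of letters in a window, and no binding or acetylation was measured here.

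The genes of the machinery were close to level between the libraries. Their differences ran from -0.31 (Hdac11) to 0.13 (Hdac6), with 27 above 0, 19 below 0 and a median of 0.02, where all 12809 genes had a median of -0.00041. Only Hdac11 passed 1.2-fold in either direction: 0 of 46 were at least 1.2-fold higher in Cre, where 7.88% of all genes were, and 1 of 46 (2.17%) was at least 1.2-fold lower, where 6.25% of all genes were. At 1.5-fold, 0 of 46 were higher or lower, against 2.25% of all genes higher and 0.952% lower. At 2-fold, 0 of 46 were higher or lower as well, against 0.734% and 0.0703% of all genes. The median size of the difference, sign ignored, was 0.06 in the machinery and 0.09 over all genes. The genes are also more abundant than most, with a median mean log2 value of 10.71 against 9.74 over all genes. Set beside the 500 genes nearest in level, 28 of the 46 differed by less than the median of those neighbours, and 0 of 46 by more than 90% of them.

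**Figure D1:**
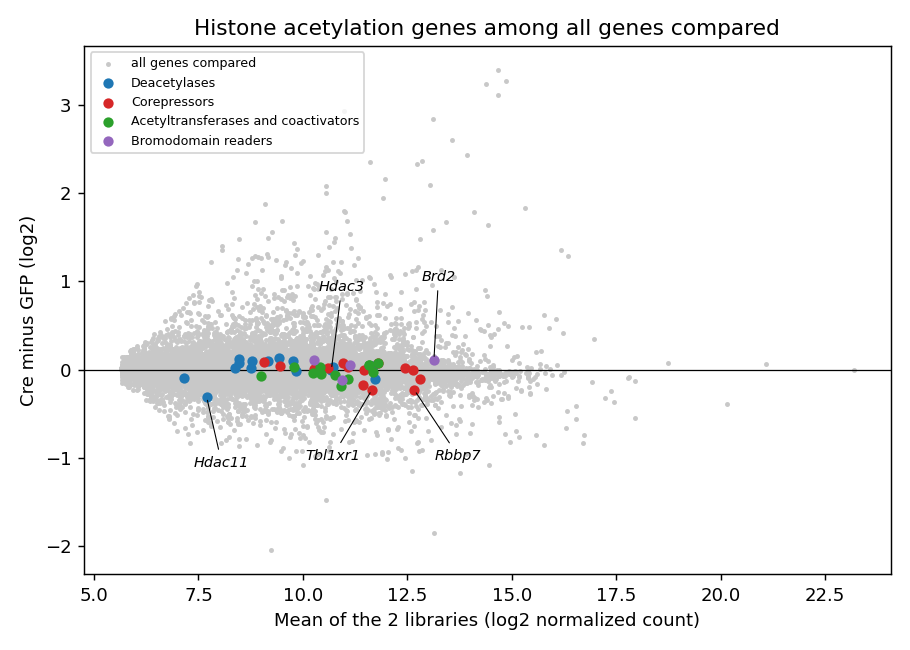
Difference between the libraries (Cre minus GFP, log2) against the mean log2 normalized count of the 2 libraries, for 12809 genes in grey and the 46 machinery genes coloured by role. The machinery genes lie in a narrow band around 0, from -0.31 (Hdac11) to 0.13 (Hdac6), while single genes elsewhere pass 3 on this scale.

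**Figure D2:**
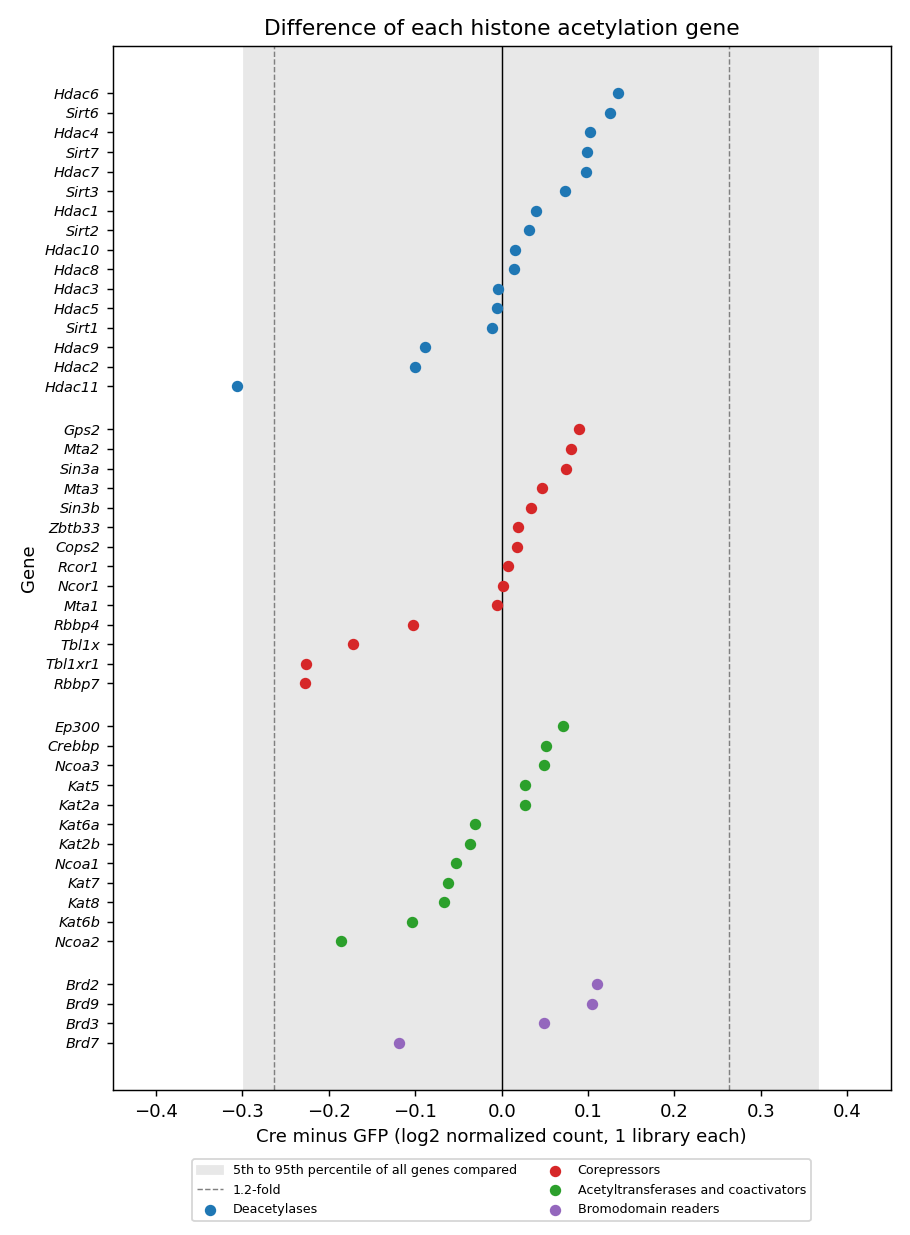
Difference of each machinery gene (Cre minus GFP, log2 normalized count, 1 library each), ordered within role. The grey band spans the 5th to 95th percentile of all genes compared (-0.30 to 0.37) and dashed lines mark 1.2-fold. Of the 46 points, 45 lie inside the band and Hdac11 lies just outside it on the low side.

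A narrower step showed which genes stood at the low end. At 1.1-fold, a threshold chosen after the values were seen, 0 of 46 were higher in Cre, where 17.2% of all genes were, and 5 of 46 (10.9%) were lower, where 15.6% of all genes were. The 5 were Hdac11, Rbbp7, Tbl1xr1, Ncoa2 and Tbl1x. The shares on both sides were below those of all genes. The 0 on the higher side depended on the scaling, since Hdac6 passed 1.1-fold when both libraries were scaled to equal totals.

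Hdac3, the gene named in the genotype label, had a value of 10.68 in Cre and 10.69 in GFP. Its level was therefore the same to within -0.0043, a difference whose sign turned to 0.0033 when both libraries were scaled to equal totals. The whole-gene value did not show a knockout in the library labelled Cre. The table holds 1 value per gene, so a loss of single exons was not tested.

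The other class I deacetylases were also close to level. Hdac1 and Hdac2, catalytic subunits of SIN3, NuRD and CoREST complexes, lay on opposite sides of 0. Hdac1 was at 11.69 in Cre and 11.65 in GFP, and Hdac2 at 11.67 and 11.77, a difference of -0.10. Hdac8, which deacetylates the cohesin subunit SMC3 and works outside these complexes, was at 8.78 and 8.76. Summed per kilobase, the 4 class I genes stood at 2184 normalized counts in Cre and 2210 in GFP.

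Class IIa deacetylases have little catalytic activity of their own and carry repressor partners to MEF2 factors. Hdac4 was at 9.22 in Cre and 9.11 in GFP, and Hdac7 at 9.82 and 9.73, each 0.10 higher in Cre. Hdac4 shares 3536 of its 15813 exon bases with Gm26720. Hdac5 was at 10.70 in both, and Hdac9, the least abundant of the 4, was at 7.10 in Cre and 7.19 in GFP. The 4 relatives thus split, with 2 above and 2 below 0, and 0 of them reached 1.2-fold. Of the class IIb genes, Hdac6, which deacetylates tubulin in the cytoplasm, was at 9.51 in Cre and 9.37 in GFP, the highest difference of the machinery at 0.13. Hdac10, a polyamine deacetylase, was at 8.39 and 8.38.

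Hdac11, the single class IV enzyme, which removes long fatty acyl groups from lysine, had the lowest difference of the machinery. It was at 7.54 in Cre and 7.85 in GFP, a 1.24-fold lower value in Cre. Of all genes, 4.72% had a lower difference, and of the 500 genes nearest in level 6.20% did. Hdac11 lies on chromosome 6 at 91156665 to 91174692 on the plus strand (GENCODE M21, GRCm38). Up to 690 of its 3849 exon bases overlap exons of Gm14573 or Gm44002, so reads of these genes cannot be told apart from its own without strand.

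Sirtuins couple deacetylation to NAD, and 4 of the 5 listed lay above 0. Sirt6, a chromatin-bound enzyme acting on histone H3, was at 8.53 in Cre and 8.41 in GFP, and Sirt7, which is enriched in the nucleolus, at 8.83 and 8.73. Sirt3, the main mitochondrial deacetylase, was at 8.51 and 8.43. These 3 differences, of 0.13, 0.10 and 0.07, were larger in size than those of 56.6%, 51.8% and 38.2% of the 500 genes nearest in level. Sirt2, mostly cytoplasmic, was at 10.73 and 10.70, and Sirt1, nuclear and active on p53 and other regulators, at 9.83 and 9.84.

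In the NCoR complex, which holds Hdac3, the scaffold was level while both WD40 subunits were lower in Cre. Ncor1 was at 12.64 in Cre and 12.63 in GFP. Tbl1x, on the X chromosome, was at 11.35 and 11.52, and its relative Tbl1xr1 at 11.54 and 11.77, differences of -0.17 and -0.23. The proteins of both genes bind histone tails and the complex and take part in the exchange of corepressors for coactivators. Of the 500 genes nearest in level, 10.4% had a lower difference than Tbl1x and 7.60% a lower one than Tbl1xr1. Gps2, a small subunit of the complex, was at 9.12 in Cre and 9.03 in GFP. Zbtb33 (Kaiso), which binds methylated DNA and recruits NCoR, was at 10.62 and 10.60, and Cops2, a COP9 signalosome subunit that also acts as a nuclear receptor corepressor, at 12.45 and 12.44.

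Scaffolds that hold Hdac1 and Hdac2 were level or slightly higher in Cre. Sin3a was at 11.00 in Cre and 10.93 in GFP, and Sin3b at 11.09 and 11.06. Rcor1, the CoREST scaffold, was at 10.28 and 10.27. Among the NuRD subunits, Mta1 was at 11.47 in both, Mta2 at 11.84 and 11.76, and Mta3 at 9.49 and 9.44. The differences of these 6 genes ran from -0.01 to 0.08. The genes of the histone-binding WD40 proteins that several of these complexes share were both below 0. Rbbp7, on the X chromosome at 162760402 to 162779092, was at 12.55 in Cre and 12.78 in GFP, a difference of -0.23 (1.17-fold), and Rbbp4 was at 12.76 and 12.86. Of the 500 genes nearest Rbbp7 in level, 12.2% had a lower difference. Rbbp4 shares up to 1578 of its 8744 exon bases with Sync or Gm26722.

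The acetyltransferases that act broadly at enhancers, Ep300 and Crebbp, were alike. Ep300 was at 11.84 in Cre and 11.77 in GFP, and Crebbp at 11.61 and 11.56, differences of 0.07 and 0.05. The catalytic subunits of SAGA and ATAC complexes were level too. Kat2a was at 10.43 and 10.40, and Kat2b at 10.22 and 10.26.

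Of the 5 MYST-family acetyltransferases, 4 lay below 0, all by little. Kat6b was at 11.03 in Cre and 11.14 in GFP, the largest difference of the 5 at -0.10, and its relative Kat6a at 11.67 and 11.70. Kat7, which acetylates histones H3 and H4 with BRPF or JADE partners, was at 10.75 and 10.81, and Kat8, the histone H4 acetyltransferase of the MSL and NSL complexes, at 8.96 and 9.03. Kat5, the catalytic subunit of the NuA4 complex, was at 9.79 and 9.77. The 4 below 0 are also the 4 found under older symbols, and without them the median of the acetyltransferases turned from -0.03 to 0.03 over 8 genes. Since all 4 removed genes lie below 0, this turn says nothing about how the symbols were matched.

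The p160 coactivators bind ligand-activated nuclear receptors and recruit p300 and CBP. Ncoa2 was at 10.82 in Cre and 11.00 in GFP, a difference of -0.19, and 8.20% of the 500 genes nearest in level had a lower one. Ncoa1 was at 10.41 and 10.47, and Ncoa3 at 11.60 and 11.55. The 3 relatives thus spread over 0.23, more than any other family of the machinery, with Ncoa3 above 0 and the others below.

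The BET readers, which bind acetylated histones and link them to transcription, were both slightly higher in Cre. Brd2 was at 13.19 in Cre and 13.08 in GFP, and up to 765 of its 7826 exon bases overlap H2-DMa or CR974462.3. Brd3 was at 11.16 and 11.11. The subunits of SWI/SNF remodelling complexes lay on opposite sides of 0: Brd9, of the non-canonical complex, was at 10.31 and 10.21, while Brd7, of the PBAF complex, was at 10.88 and 10.99, a spread of 0.22 between them.

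Close relatives could share reads, and how reads with several alignments were counted is not given in the sources used here. Of 13 families of relatives, which hold 30 of the 46 genes, 7 had all members on the same side of 0. Over all genes 49.9% lay above 0, so unrelated genes often share a side as well. A part of shared reads in these 7 was not tested. Of these 7, 4 were above 0 (Hdac6 with Hdac10, Sin3a with Sin3b, Ep300 with Crebbp, Brd2 with Brd3) and 3 below (Tbl1x with Tbl1xr1, Rbbp4 with Rbbp7, Kat6a with Kat6b). In addition, 22 of the 46 genes share exon bases with another annotated gene, up to 8 of them over more than 5% of their exon length. The kit named in the protocols does not mark strand.

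Levels of different genes were compared per length, as linear normalized counts per kilobase of summed GENCODE exons. Rbbp7 was the most abundant in both libraries, at 2066 per kilobase in Cre and 2420 in GFP, followed by Cops2 (1581 and 1562), Brd2 (1198 and 1110) and Hdac1 (962 and 935). At the low end were Hdac9 (9.35 and 9.95), Hdac4 (37.6 and 35.0), and Hdac11 (48.5 and 59.9) and Sirt3 (60.9 and 57.9), which changed places between the libraries. With 1 library each, the spread behind these levels is unknown. The order was alike in both: 20 of the 46 kept their rank and the largest change was 7 places, by Tbl1xr1, from 12th in GFP to 19th in Cre. Rbbp4 and Mta2 also changed places, at 792 and 897 in Cre against 850 and 848 in GFP.

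Some relatives stood far apart in level in both libraries, while others, such as Tbl1x and Tbl1xr1 (a ratio of 1.11 in Cre and 1.07 in GFP), were close. Hdac5 stood at 189 per kilobase in each library, about 20.2 times the level of Hdac9 in Cre and 19.1 times in GFP. Mta1 stood at 6.77 times Mta3 in Cre and 7.02 times in GFP. Brd2 was 3.84 times Brd3 in Cre and 3.68 times in GFP. Hdac3 stood at 405 and 406 per kilobase, below Hdac1 and Hdac2 (727 and 779) and above all 8 other HDACs, in both libraries. Its scaffold Ncor1 stood at 497 and 496.

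**Figure D3:**
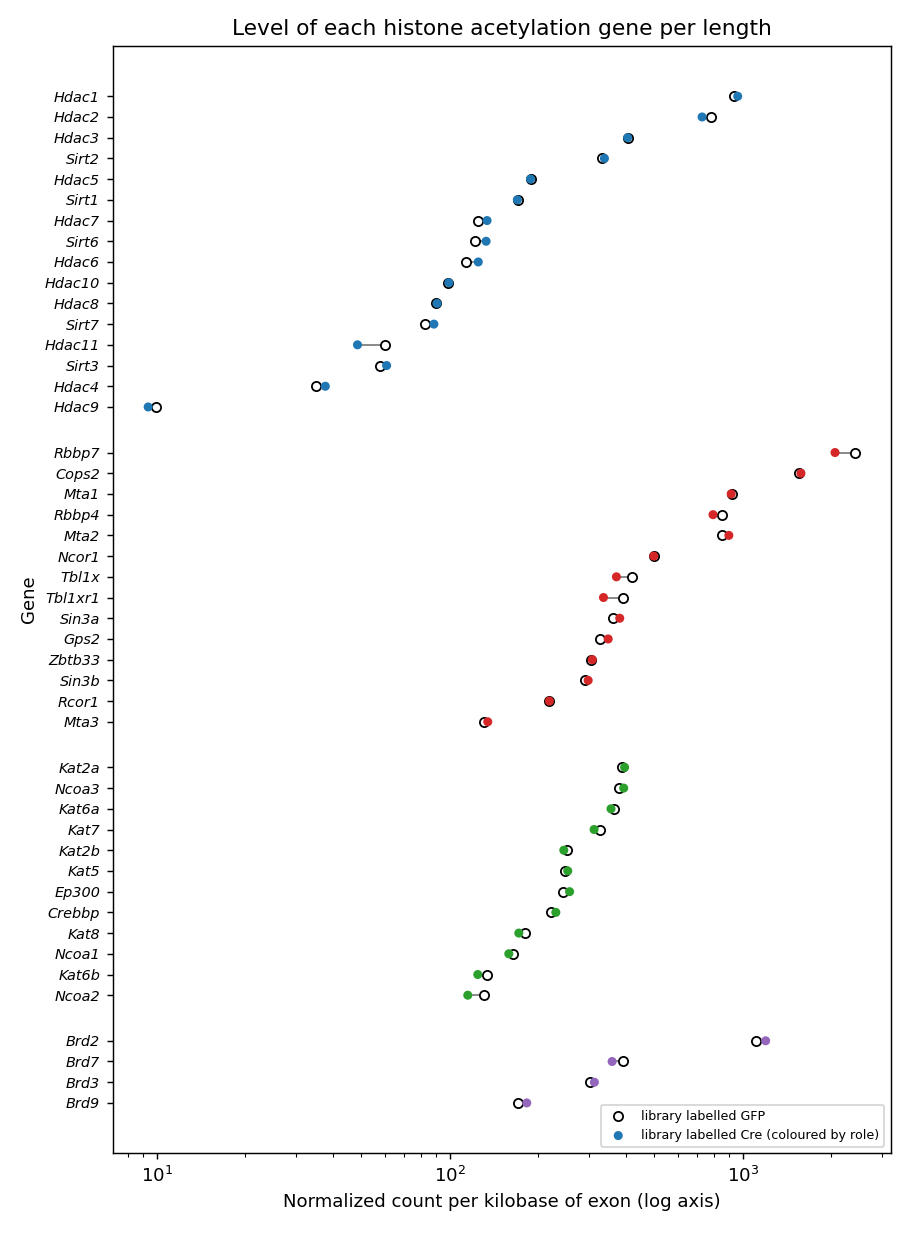
Linear normalized count per kilobase of exon (log axis) of each machinery gene in the library labelled GFP (open circles) and the library labelled Cre (filled circles, coloured by role). The levels span from 9.35 (Hdac9) to 2420 (Rbbp7), and the 2 circles of a gene mostly touch, with Hdac11 the widest apart.

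A wider list of 128 partner and supply genes, complex subunits, other readers and enzymes of acetyl-CoA and NAD metabolism, was drawn from general knowledge of these complexes. Of these, 123 were found, 76 above 0 and 47 below, with a median of 0.02. Of the 123, 7 (5.69%) were at least 1.2-fold higher in Cre, against 7.88% of all genes, and 1 (0.813%) was at least 1.2-fold lower, against 6.25%. At 1.5-fold, 1 (0.813%) was higher and 0 were lower, against 2.25% and 0.952% of all genes.

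The gene past 1.5-fold was Baz1a, which encodes a bromodomain subunit of ISWI chromatin remodelling complexes, at 11.06 in Cre and 10.23 in GFP (1.77-fold). Of the 500 genes nearest in level, 98.0% had a lower difference. Of its 7159 exon bases, 346 overlap Gm20403.

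Of the other 6 genes past 1.2-fold on the higher side, 2 encode subunits of the SIN3 complex and 1 a CoREST scaffold. Sap30 was at 10.29 in Cre and 9.85 in GFP (1.35-fold), and Ing1, which reads methylated histone H3, at 10.51 and 10.13 (1.30-fold). Rcor2, the relative of Rcor1, was at 9.07 and 8.71 (1.28-fold). All 12 listed SIN3 subunits were found, with 9 above 0 and a median of 0.04. Of these 12, 4 were at least 1.1-fold higher in Cre (2 of them past 1.2-fold) and 1 was at least 1.1-fold lower. The median of the 8 CoREST genes was 0.03.

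Supply genes spread most, with a median size of difference of 0.15 over 12 genes. Nampt, the rate-limiting enzyme of NAD salvage, was at 12.49 in Cre and 12.07 in GFP (1.34-fold), and Nadk, which makes NADP from NAD, at 12.51 and 12.10 (1.32-fold). Cd38, an NAD-consuming surface enzyme found on leukocytes, was at 6.60 and 6.31 (1.22-fold). These 3 were higher in the library in which 12 of the 17 measured macrophage and osteoclast markers were also higher and 5 were lower. The part of those cells was not tested. On the other side, Acss2, which makes acetyl-CoA from acetate in the nucleus and cytosol, was at 10.22 in Cre and 10.63 in GFP (1.33-fold lower in Cre), and of all genes 2.46% had a lower difference. It shares up to 927 of its 10163 exon bases with Ggt7, Acss2os or Gss. After it the lowest were the SWI/SNF ATPase gene Smarca2 (-0.26), the bromodomain cofactor gene Trim24 (-0.21), and the SAGA genes Supt3 (-0.20) and Usp22 (-0.18).

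**Figure D4:**
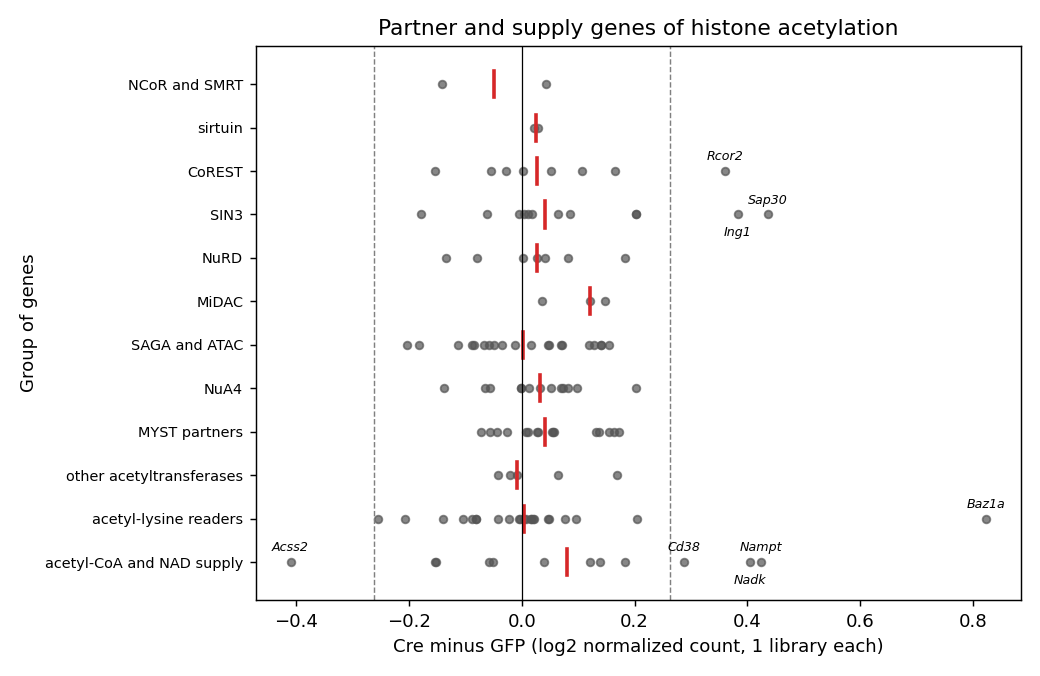
Difference (Cre minus GFP, log2 normalized count, 1 library each) of the 123 measured partner and supply genes, 1 point per gene in 12 groups, with the group median as a red bar and dashed lines at 1.2-fold. Most points lie within 0.2 of 0. Baz1a (0.82) and 6 other named genes lie past the upper line, and Acss2 (-0.41) past the lower one.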

How the data were processed

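RNA from 2 mouse chondrocyte cultures was sequenced, 1 library labelled Cre and 1 labelled GFP, from TruSeq v2 mRNA libraries per the labels' protocols. Per the submitters' processing notes, the tools included TopHat2 2.0.6, HTSeq and bcl2fastq 1.8.4, with build mm10. The counting settings are, like the annotation, not given in the sources used here. The authors deposited log2 values of normalized counts with their mean and difference. The difference is headed rLogFC, so the transform is taken to be a regularized log, which pulls thinly covered genes towards no difference; if so, differences of low genes such as Hdac9 and Hdac11 are understated. It equals GFP minus Cre in every row and was turned here to Cre minus GFP.

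Members, lists and thresholds were chosen with earlier results of these data known. Genes needed a mean of at least 50 (5.64 on the log2 scale), and a gene was counted by fold alone: 1.2, 1.5 or 2, and 1.1 added after the values were seen. Named were Hdac3, the extremes of each role, all families of relatives, members past 1.2-fold, and the 5 highest and 5 lowest and those past 1.5-fold of the wider list. The remaining members, and the genes of the wider list between 1.2-fold and 1.5-fold, were named as well after their values were seen. Older symbols were matched through RefSeq synonyms on the same chromosome (4 of 46 members, 7 of the wider list). Exon lengths, coordinates and overlaps came from GENCODE M21 (GRCm38, the assembly of mm10), matched by symbol and chromosome for all 46. Overlaps with several genes were added up, so a base shared with more than 1 of them was counted more than once. Exon lengths sum every annotated transcript, which lowers per-kilobase levels of genes with long, seldom used exons. Counts of calls were checked on simulated data. Python 3.11.15, numpy 2.4.6, pandas 2.3.3 and matplotlib 3.10.9 were used.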

Additional observations from a re-analysis of the deposited data

How the results depend on the processing

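Alternatives at 1.1-fold and without the 4 genes under older symbols were chosen after the data were seen. The count of 1 machinery gene at least 1.2-fold lower became 0 at 1.5-fold, 0 at 2-fold, 5 at 1.1-fold and 0 with a minimum 10 times higher, which removes Hdac11 and leaves 39 genes. The count of 0 higher genes was 0 under every alternative run. Only 1.1-fold could have raised that count. The highest difference was 0.13 (Hdac6), and 1.2-fold lies at 0.26, beyond the reach of the scalings. The scalings were counted at 1.2-fold only. The line of 1.1-fold lies at 0.1375, and Hdac6 stood at 0.142 with equal totals. With Rn45s and Lars2 left out of the totals, Hdac6 stood at 0.149 and Sirt6 at 0.141. The count of 0 higher at 1.1-fold thus depended on the scaling. Of 42 alternative values for the medians of all members, the 4 roles and the wider list, 42 stayed within 0.1 of the reported one. That width is larger than each of these medians, the largest being 0.08 for the readers, so it cannot show that a median is stable. The scalings could not have left it, and dropping the minimum added no gene. In 3 of the 42 the sign turned: the mean gave -0.0068 for all members and -0.03 for corepressors, and the acetyltransferases without older symbols gave 0.03. The 3 scalings moved every gene alike, by 0.00041, 0.0077 and 0.015, which turned the sign of 4 members (Hdac3, Hdac5, Sirt1 and Mta1) and 7 genes of the wider list, all within 0.02 of 0. Without relatives no reader was left, so that alternative was not run for readers, nor for the wider list, which holds none of the listed relatives. No paired analysis was possible because there was only 1 library per group. Depth is unknown, so no counting interval could be given.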
